A study of Mus musculus with 17 samples.

Results

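Bone marrow plasma cells (BMPC), the long-lived antibody-secreting cells that develop from activated B cells, were compared between mice whose B cells lack Dnmt3a and Dnmt3b, the enzymes of de novo DNA methylation, and mice whose B cells keep them. The comparison took every BMPC library of the deposited accessibility table by its column name, which gave 5 of the 16 libraries, 2 from Dnmt3-deficient (KO) and 3 from Dnmt3-sufficient (C) mice. The other libraries were 5 of naive follicular B cells (nB) and 6 of germinal center B cells (GCB). KO mice were Dnmt3afl/flDnmt3bfl/fl with a cre that is expressed in B lineage cells, and C mice were littermates that carried the same floxed alleles and no cre, so both genotypes shared the floxed Dnmt3a and Dnmt3b genes on a B6;129S4 background. This cre is already expressed in precursors of B cells, so it acts before the nB stage, and the plasma cells of a KO mouse descend from cells that had already lost the enzymes. BMPC came from adult female mice that had been immunized with phycoerythrin in complete Freund's adjuvant. They were sorted as CD138+ cells 30 days after immunization, 1 mouse per library. In the main tests of single regions, libraries of all 6 groups of cell type and genotype share 1 estimate of the spread. Their p-values therefore measure spread between mice in BMPC and nB and between pools in GCB together, not in BMPC alone. nB came from unimmunized male mice and GCB from pools of immunized mice of 1 sex each, so cell type, sex and immunization cannot be told apart between these groups. Another KO BMPC sample named in the labels was not analysed here.

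DNA methylation is the addition of a methyl group to cytosine, in mammals mostly at CpG, and Dnmt3a and Dnmt3b place it on sites that were not methylated before, whereas Dnmt1 copies it after replication. Methylated DNA tends to be packed and many transcription factors bind it poorly. ATAC-seq measures how open chromatin is: the Tn5 transposase inserts sequencing adapters into DNA that is not covered by nucleosomes, and the reads in a region count those insertions. Values are given as RPPM, the reads in a region scaled by the sum of reads in all 66177 accessible regions (mm9 build) of the table. BMPC libraries held between 5357687 (KO replicate 2) and 8232313 (KO replicate 1) reads in regions, and a count of 0 still allowed for 3 reads, or 0.364 to 0.560 RPPM, which covers counting error only.

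The sequences shown here are the centres of 3 regions that were more accessible and 2 that were less accessible in KO BMPC, so that the density of CpG, the substrate of Dnmt3a and Dnmt3b, can be seen in them. They are 200 bases each from the mm9 reference, and CpG is in capitals.
S100z (chr13:96264839-96265038, plus strand): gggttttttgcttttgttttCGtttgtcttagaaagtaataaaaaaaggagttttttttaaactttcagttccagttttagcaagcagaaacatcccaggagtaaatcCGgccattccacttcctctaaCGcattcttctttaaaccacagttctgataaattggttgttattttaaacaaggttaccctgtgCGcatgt
Sept9 (chr11:117169340-117169539, plus strand): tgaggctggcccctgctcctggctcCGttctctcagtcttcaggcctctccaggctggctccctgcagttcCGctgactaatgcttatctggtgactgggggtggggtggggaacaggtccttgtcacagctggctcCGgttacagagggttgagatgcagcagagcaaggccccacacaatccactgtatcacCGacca
Scml4 (chr10:42670197-42670396, plus strand): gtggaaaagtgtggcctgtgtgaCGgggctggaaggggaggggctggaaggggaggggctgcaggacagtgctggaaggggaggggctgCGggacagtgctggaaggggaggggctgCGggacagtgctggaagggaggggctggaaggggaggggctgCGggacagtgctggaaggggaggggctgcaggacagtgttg
Rims2 (chr15:39004596-39004795, plus strand): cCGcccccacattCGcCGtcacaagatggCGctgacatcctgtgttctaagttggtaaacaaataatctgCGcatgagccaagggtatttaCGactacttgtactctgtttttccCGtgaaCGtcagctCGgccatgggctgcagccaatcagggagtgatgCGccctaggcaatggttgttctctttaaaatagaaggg
Syne1 (chr10:4821507-4821706, plus strand): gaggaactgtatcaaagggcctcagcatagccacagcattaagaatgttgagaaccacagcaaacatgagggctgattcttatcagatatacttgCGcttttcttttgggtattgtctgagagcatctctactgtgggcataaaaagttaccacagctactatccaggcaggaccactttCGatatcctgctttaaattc
The windows beside S100z, in Sept9 and in Scml4, which gained accessibility, hold 4 CpG each. In Scml4 most of these lie in copies of a short repeated unit. The windows that lost accessibility differ from each other, with 10 CpG upstream of Rims2 and 2 in Syne1.

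KO BMPC had many more regions that were more accessible than regions that were less accessible. On log2(RPPM + 1) with limma, 60 of 66177 regions were more accessible (0.0907% of all regions) and 9 were less accessible (0.0136%), at an adjusted p of at most 0.01 (Benjamini-Hochberg) and a change of at least 1 on the log2 scale. With TMM scaling in place of total reads the same fit gave 53 and 17, and with paired GCB pools, which changes the shared spread, 388 and 34. The whole reads behind each RPPM value could be recovered, and edgeR's quasi-likelihood test on them called 962 regions more accessible (1.45%) and 239 less accessible (0.361%) by the same limits. Of the limma calls, 59 of the 60 increases and all 9 decreases were among the edgeR calls and none had the opposite direction, while limma called 6.13% of the edgeR increases and 3.77% of the edgeR decreases. In 20.0% of all regions both KO libraries lay above every C library and in 13.8% both lay below. The genotypes did not overlap in 959 of the 962 edgeR increases, in 234 of the 239 edgeR decreases, or in any of the limma calls. The calls were made between these same libraries. Such separation therefore follows largely from the selection and is a description only, here and for the single called regions below. The median log2 fold change of all regions was 0.03 by limma and -0.04 by edgeR, values that the scaling of each library keeps near 0.

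Neither the Dnmt3a nor the Dnmt3b promoter was called. The Dnmt3b promoter (chr2:153474905-153476249) measured 40.6, 40.5 and 35.7 RPPM in C and 45.7 and 41.8 RPPM in KO BMPC. At the Dnmt3a promoter nearest to an annotated start (chr12:3890769-3891672) C libraries held 28.0, 20.6 and 23.4 RPPM and KO libraries 25.1 and 21.3 RPPM. KO libraries lay above every C library at Dnmt3b and among them at Dnmt3a. Deletion of the floxed exons cannot be read from promoters. Within 10 Mb of the Dnmt3a promoter 3 of 216 regions (1.39%) were more accessible by edgeR, and of Dnmt3b 14 of 697 (2.01%), against the 1.45% of all regions. Both genotypes carried the floxed alleles of these genes. DNA around the cre allele, which only KO mice carried, is not covered by these windows. One region of Dnmt3a itself, in an intron at chr12:3870893-3871728, was among the edgeR increases, with 6.37, 2.37 and 3.89 RPPM in C and 9.35 and 11.0 RPPM in KO (log2 fold change 1.13, adjusted p 0.00415 by edgeR).

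By sums over marker promoters, BMPC of both genotypes stood apart from nB. Summed over the promoters of 9 plasma cell markers, C libraries held 541, 598 and 584 RPPM and KO libraries 558 and 558 RPPM. In C nB the same sum was 353 to 371 RPPM. Tnfrsf17, the receptor through which plasma cells receive survival signals in the marrow, had 18.4 to 22.6 RPPM in C and 15.5 and 17.5 RPPM in KO. In C nB it had 0.188 to 0.744 RPPM. Not every marker of the list was higher than in nB. Irf4 had 47.1 to 55.1 RPPM in C BMPC against 56.3 to 63.7 RPPM in C nB. Prdm1 overlapped, with 97.4 to 98.8 RPPM in C BMPC and 92.6 to 100 RPPM in C nB. Promoters of 8 B cell markers summed to 141, 146 and 132 RPPM in C and 142 and 127 RPPM in KO. In C nB they summed to 412 to 453 RPPM. The promoter of Pax5, the factor that holds B cell identity, had 3.77, 2.74 and 2.02 RPPM in C BMPC. In KO BMPC it had 3.89 and 2.05 RPPM. None of these 17 genes had a promoter region called by limma or edgeR.

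Markers of other marrow cells were looked at in the same way, by promoter regions. Cd3e, Cd3d, Cd3g, Mpo, S100a8, S100a9, Csf1r, Gata1 and Klf1, which define T cells, myeloid cells and red cell precursors, had no promoter region in the table. The 3 of 10 granulocyte and monocyte markers that had one summed to 60.7, 51.1 and 58.4 RPPM in C and 63.3 and 62.3 RPPM in KO, most of it from Cebpe, and both KO libraries lay above every C library. For 3 of 4 stem and progenitor markers the sums were 68.7, 58.6 and 59.9 RPPM in C and 46.4 and 52.3 RPPM in KO, most of it from Flt3, and here both KO libraries lay below every C library. The Kit promoter, of the same list, lay the other way, with 10.5, 3.83 and 3.43 RPPM in C and 12.8 and 12.7 RPPM in KO. For the 2 of 9 T and NK cell markers with a region the sums were 12.0, 5.84 and 6.07 RPPM in C and 10.9 and 9.15 RPPM in KO. Cd5 was the larger part in 4 of these libraries and Klrb1c (3.58 RPPM) in C replicate 3. Megakaryocytes were represented by 1 of 4 markers (Itga2b; 17.0 to 20.9 RPPM in C, 19.6 and 19.6 RPPM in KO), plasmacytoid dendritic cells by 2 of 3 (11.4, 14.0 and 9.34 RPPM in C, 14.3 and 11.8 RPPM in KO) and stroma by 1 of 5 (Pdgfrb; 5.46, 2.92 and 2.96 RPPM in C, 3.52 and 3.73 RPPM in KO). For these 3 cell types the genotypes overlapped. The part of other cells in the changed regions was not tested, and a change in a share of cells cannot be told apart from a change within each cell.

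The largest gain lay beside S100z and F2rl1, the gene of a protease-activated receptor. The intergenic region at chr13:96264434-96265443, 15823 bases upstream of the S100z start, held 0.910, 0.365 and 0.156 RPPM in C and 22.2 and 25.4 RPPM in KO BMPC (10 reads in the 3 C libraries together, 183 and 136 in the KO libraries). It was close to closed in every C library and open in both KO libraries, or 4.10 ± 0.61 (SE) on the log2 scale (adjusted p 0.00194 by limma). In an exon of F2rl1 (chr13:96282574-96283044) C libraries had 0, 0 and 1 reads and KO libraries 59 and 31. The F2rl1 promoter (chr13:96293864-96295493), already open in C, rose from 15.1, 10.0 and 11.7 RPPM to 37.2 and 35.8 RPPM (log2 fold change 1.49, adjusted p 2.13e-07 by edgeR). In all, 7 of the 8 regions between chr13:96264434 and chr13:96337434 were more accessible by edgeR. In the earlier cell types the F2rl1 promoter had means of 3.65 RPPM in C nB and 1.92 RPPM in KO nB, and of 11.3 RPPM in C GCB and 13.9 RPPM in KO GCB.

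Grb7, an adaptor of receptor tyrosine kinases, gained accessibility at its promoter. The region over its start (chr11:98307891-98308636) held 2.73, 3.47 and 3.27 RPPM in C and 15.3 and 20.0 RPPM in KO, or 2.16 ± 0.32 (SE) on the log2 scale (adjusted p 0.00194 by limma). In nB and GCB of both genotypes its mean was between 1.98 and 2.32 RPPM. Cep250, which encodes a centrosome protein, gained a region 1892 bases upstream of its start (chr2:155799756-155800232), from 0.650, 0.547 and 0.311 RPPM to 7.90 and 9.52 RPPM, or 2.69 ± 0.34 on the log2 scale (adjusted p 0.000277 by limma). Unlike Grb7, this region was open in nB, at 5.34 RPPM in C and 5.37 RPPM in KO, and low in GCB, at 1.38 and 1.90 RPPM.

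Away from promoters, the other 9 of the 12 largest limma increases were spread over introns, an exon and intergenic DNA of genes with many functions. Sept9, a septin of the cytoskeleton, gained an intronic region (chr11:117169204-117169674; 2.73, 2.19 and 1.56 RPPM in C, 15.5 and 17.5 RPPM in KO). The region in an intron of Runx2, a transcription factor best known from bone (chr17:44928504-44929450; 2.08, 0.730 and 1.56 RPPM in C, 10.9 and 10.6 RPPM in KO), lay nearest to a start of Supt3. In Gab2, an adaptor protein of cytokine and antigen receptor signaling, an exonic region (chr7:104372165-104372759) went from 1.17, 0.547 and 1.40 RPPM to 7.41 and 12.7 RPPM. These 3 regions rose by between 2.30 and 2.49 on the log2 scale with no overlap of the genotypes. Scml4, a Polycomb-related gene expressed in lymphocytes, had 0.650, 0.182 and 0 RPPM in C and 4.37 and 5.60 RPPM in KO at its intronic region (chr10:42670012-42670580). The centre of this region holds a short unit many times over, and how well reads map there was not tested. The rest of the 12 lay near Npas3, in Atp9a, and near Coro1c, Diras2 and Cxxc5, and rose by 2.19 to 2.46 on the log2 scale (limma).

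**Figure D1:**
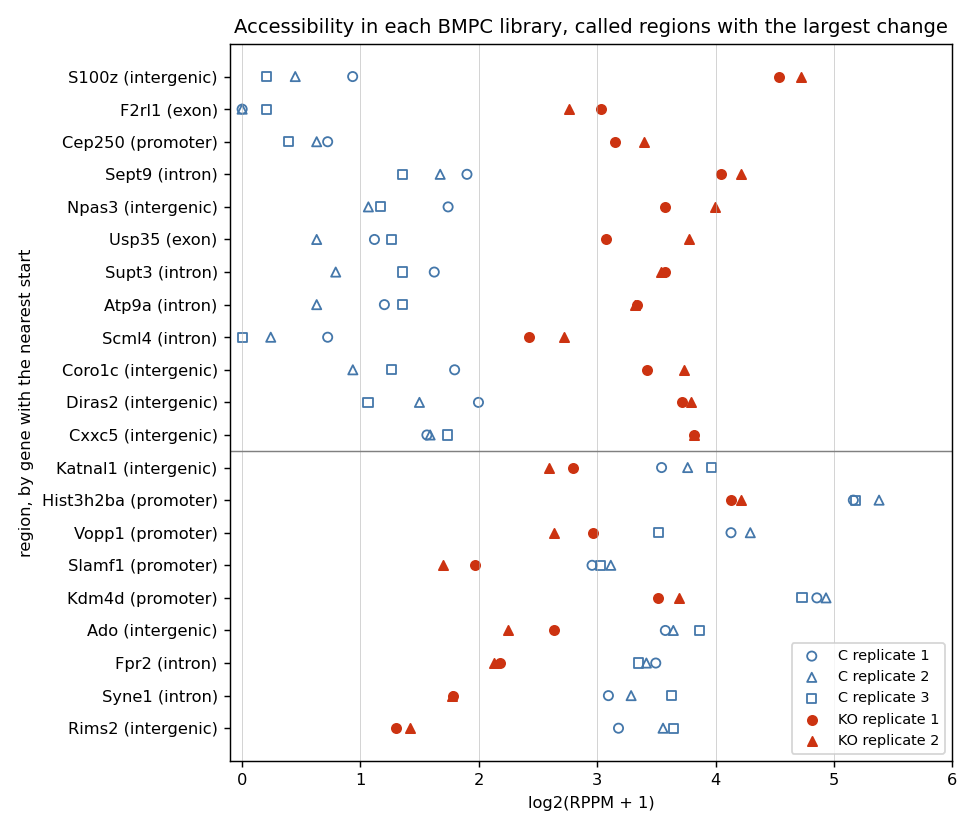
Accessibility as log2(RPPM + 1) (x axis) in the 3 C (open symbols) and 2 KO (filled symbols) BMPC libraries for the 12 limma increases of largest size (above the line) and the 9 limma decreases (below it), named by the gene with the nearest start or, for Coro1c, by the nearest transcript. KO libraries lie to the right of every C library in the upper part and to the left of every C library in the lower part, with all C values of S100z below 1 and both KO values above 4 on this scale.

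Of the 9 regions that lost accessibility by limma, 4 were promoters (Slamf1, Kdm4d, Hist3h2ba and Vopp1). Kdm4d, a histone demethylase, fell from 28.0, 29.6 and 25.5 RPPM to 10.4 and 11.9 RPPM at chr9:14303303-14304264, or -1.23 ± 0.21 (SE) on the log2 scale (adjusted p 0.00507 by limma). Hist3h2ba, a histone H2B gene, fell from 34.9, 40.7 and 35.3 RPPM to 16.5 and 17.5 RPPM (-1.07 ± 0.16 on the log2 scale). Slamf1, a receptor that lymphocytes use to recognise each other, had 6.76, 7.66 and 7.16 RPPM in C and 2.92 and 2.24 RPPM in KO at its start (chr1:173696905-173697609; -1.20 ± 0.21 on the log2 scale). At each of these 3 promoters both KO libraries lay below every C library. Outside promoters the largest loss was intergenic, 24870 bases upstream of Rims2, a gene of vesicle release (chr15:39004384-39005007), from 8.06, 10.8 and 11.5 RPPM to 1.46 and 1.68 RPPM, or -2.10 ± 0.37 on the log2 scale (adjusted p 0.00519 by limma). Syne1, a protein that links the nucleus to the cytoskeleton, fell in an intron (chr10:4821119-4822094) from 7.54, 8.76 and 11.4 RPPM to 2.43 and 2.43 RPPM. The remaining 3 lay near Ado, in Fpr3 and near Katnal1.

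By annotation class, regions that gained accessibility were seldom promoters. Of all 66177 regions 21.7% were promoters, 7.74% exonic, 35.5% intronic and 35.1% intergenic. Of the 962 edgeR increases 74 were promoters (7.69%, 95% Wilson interval 6.17% to 9.55%), 12.3% exonic, 44.7% intronic and 35.3% intergenic. The 60 limma increases gave a like split, with 6 promoters (10.0%, 4.66% to 20.1%), 15.0% exonic, 41.7% intronic and 33.3% intergenic. Both intervals treat regions as independent, although many lie near one another, and they do not measure the spread between mice. Of the 239 edgeR decreases 32 were promoters (13.4%), 36.8% intronic and 42.7% intergenic. Put the other way, edgeR called 0.516% of promoters more accessible, but 2.30% of exonic, 1.83% of intronic and 1.46% of intergenic regions. Promoters also differed in the median over all their regions, -0.04 on the log2 scale by limma against 0.08 for introns, 0.07 for exons and 0.06 for intergenic regions. Promoter regions had a median of 33.8 RPPM in BMPC and intronic ones 3.59 RPPM, so class and level go together and cannot be told apart in these counts.

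The same shift was seen in where the reads fell. In C BMPC 55.8%, 56.4% and 56.1% of reads in regions were in promoters, and in KO 54.1% and 54.5%, with no overlap. The means were 56.1% ± 0.281 (SD, n = 3) and 54.3% ± 0.298 (SD, n = 2), a difference of -1.79 percentage points (exact permutation test, two-sided, p = 0.2, the smallest that 3 against 2 libraries allow). Intronic reads made up 17.3%, 16.9% and 17.0% in C and 18.1% and 17.7% in KO. Reads on the mitochondrial genome, 2.56% to 3.06% in C and 2.85% and 3.12% in KO, overlapped between the genotypes.

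Gained regions lay farther from transcription starts than regions did in general. The median distance to the nearest start was 11374 bases for all regions, 20620 bases for the edgeR increases, 19987.5 bases for the limma increases and 15068 bases for the edgeR decreases. Leaving out promoters, the medians were 17797 bases for all regions, 23633.5 bases for the edgeR increases and 21261 bases for the edgeR decreases. Within 1 kb of a start lay 8.32% of the edgeR increases against 22.7% of all regions, and beyond 100 kb 10.4% against 6.14%. Downstream of the nearest start lay 55.9% of the edgeR increases and 46.7% of all regions. The most distant limma increase (chr15:28955858, 822336 bases from the Dnah5 start) rose from a mean of 1.22 RPPM in C to 6.49 RPPM in KO.

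**Figure D2:**
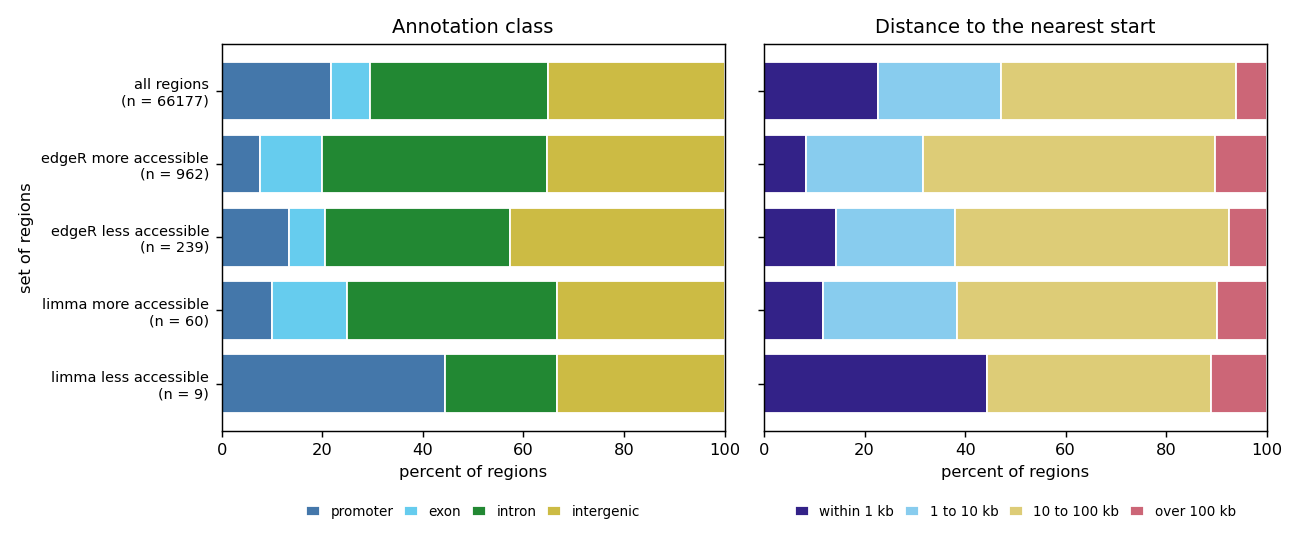
Percent of regions (x axis) by annotation class (left) and by distance to the nearest transcription start (right) for all regions and for the regions called more or less accessible in KO BMPC by edgeR and by limma. Promoters make up 21.7% of all regions and 7.69% of the edgeR increases, while 4 of the 9 limma decreases are promoters.

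Outside promoters, calls followed the density of CpG. Regions were split into 5 equal parts by CpG per 100 bases, and edgeR called 0.648%, 1.31%, 1.73%, 2.48% and 2.44% of them more accessible from the part with the fewest CpG to that with the most. Decreases ran the other way over the same parts, from 0.464% and 0.503% to 0.428%, 0.339% and 0.242%. Among promoters the order was different, with 1.05% more accessible in the part with the fewest CpG and 0.0699% and 0.419% in the 2 parts with the most. Outside promoters the median region held 1.21 CpG per 100 bases, the median edgeR increase 1.61 and the median edgeR decrease 1.045. GC content was 47.3% for all regions outside promoters, 49.6% for the increases and 46.4% for the decreases. Regions poor in CpG were also weaker, with a median of 1.96 RPPM over BMPC libraries in the part with the fewest CpG and 5.30 RPPM in that with the most, and the part of level in this order was not tested.

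**Figure D3:**
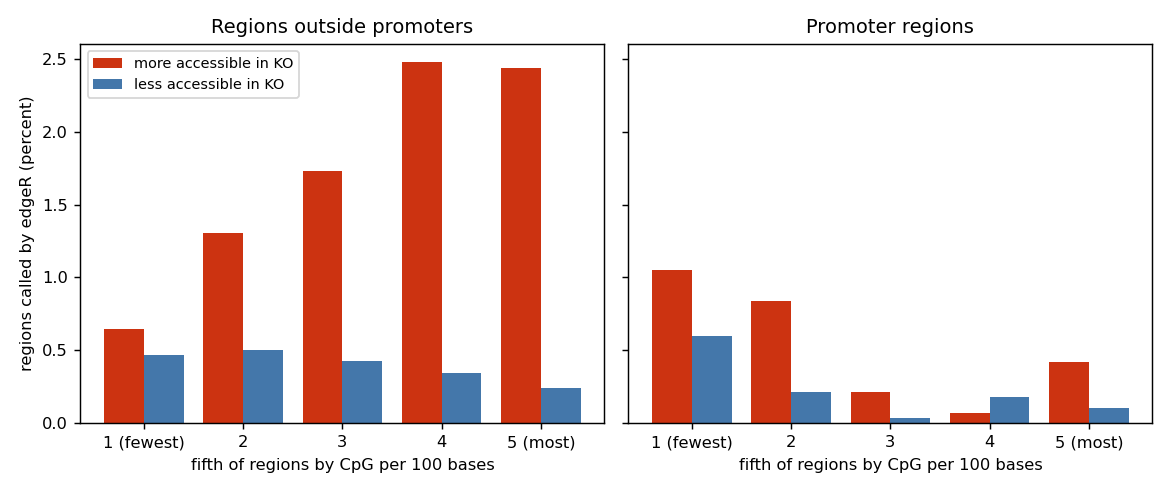
Percent of regions called by edgeR (y axis) as more (red) or less (blue) accessible in KO BMPC, for 5 equal parts of the regions ordered by CpG per 100 bases (x axis), outside promoters (left) and at promoters (right). Outside promoters the red bars rise from 0.648% to 2.44% and the blue bars fall from 0.464% to 0.242%, and at promoters red is highest, at 1.05%, in the part with the fewest CpG.

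Short motifs of B cell and plasma cell factors were counted in all regions outside promoters on both strands, whatever their width. CAGCTG, a core of the E2A binding site, stood in 44.6% of the edgeR increases and in 42.6% of the edgeR decreases, against 30.2% of all such regions. The related core CACCTG was found in 54.8% and 54.9%, against 38.5%. GGAAGT, read by the ETS factor PU.1, was in 47.6% and 46.6%, against 40.9%, and GAAAC, part of the IRF4 site, in 78.7% and 85.8%, against 71.1%. ATGCAAAT, the octamer of Oct-2, was in 5.29% of the increases and 10.8% of the decreases, against 6.33%. Among the fewer limma calls, CAGCTG was in 38.9% of 54 increases and in none of 5 decreases, and GGAAGT in 64.8% and 80.0%. Differences between increases and decreases were not tested. Outside promoters the edgeR increases had a median width of 533 bases and the edgeR decreases of 682.5 bases, against 466 bases for all such regions, and a wider region holds more motifs.

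Many edgeR calls had another call of the same direction close by. Of the 962 edgeR increases, 437 (45.4%) had another within 100 kb, while 15.8% of the regions that were not called more accessible had a called one that near. For the 239 decreases the shares were 28.9% and 3.72%. Of the limma calls, 7 of the 60 increases (11.7%, against 1.35% of the other regions) and none of the 9 decreases (against 0.178%) had another within 100 kb. The increases had a gene symbol at the nearest start in all but 128 cases and fell to 640 genes, of which 125 had 2 or more and 15 had 4 or more. Foxp1, a forkhead factor of B cell development, had 8 of its 98 regions called more accessible, Tenm4, a cell surface protein, 7 of 26, and Mgmt, a DNA repair enzyme, 6 of 7. None of these genes had a region called less accessible. At a Foxp1 promoter (chr6:99216055-99216651) C libraries held 6.24, 5.66 and 4.67 RPPM and KO libraries 13.0 and 15.3 RPPM. Mgmt gained at its start (chr7:144085755-144086655), from 13.3, 7.66 and 9.03 RPPM to 23.8 and 29.1 RPPM, and up to 138735 bases into the gene. Ets2, an ETS factor, had 4 of 15 regions called, and its intronic one (chr16:95929695-95930205) rose from 0.650, 1.09 and 1.09 RPPM to 6.68 and 8.59 RPPM. Smarca2, an ATPase of chromatin remodeling, had 3 of 13, 98072 to 101494 bases upstream of its start, with log2 fold changes of 2.42 to 2.89 (edgeR).

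Clusters of losses were fewer. Cobl, an actin nucleator, lost accessibility in 5 of its 7 regions, with 16.3, 16.4 and 13.5 RPPM in C and 5.83 and 5.60 RPPM in KO at its promoter (chr11:12363910-12365274) and log2 fold changes from -1.83 to -1.45 (edgeR). H2-Eb2, a class II MHC gene, lost it in 3 of the 4 regions nearest to its start, and its promoter (chr17:34462174-34462959) fell from 12.9, 16.1 and 12.6 RPPM to 6.80 and 6.91 RPPM. The longest run, 9 of 16 regions between chr5:11128006 and chr5:11771461, lay at Speer1, Gm6460 and genes without a symbol. In a multigene family such as this, reads may map to several near-identical copies. That was not tested here, so the values of this run are uncertain.

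**Figure D4:**
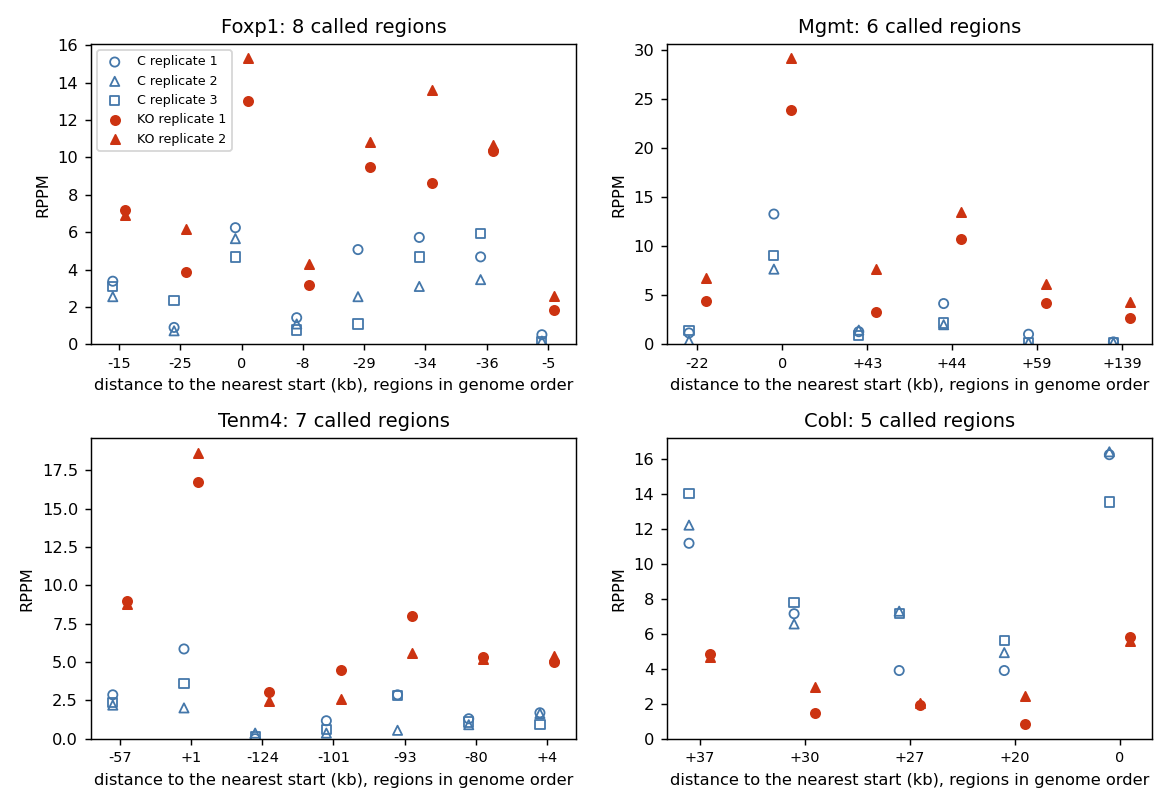
RPPM (y axis) in the 3 C (open symbols) and 2 KO (filled symbols) BMPC libraries for the regions called by edgeR at Foxp1, Mgmt, Tenm4 and Cobl, in genome order and labelled by distance to the nearest start in kb (x axis). KO libraries lie above every C library at the first 3 genes and below every C library at Cobl.

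Among the gene lists, B cell genes were called more accessible by edgeR at a share close to that of all regions. Of 486 regions near 38 genes of the B cell program, limma called 2 more accessible (0.412%, against 0.0907% of all regions) and edgeR 6 (1.23%, against 1.45% of all regions) with 1 less accessible, and their median log2 fold change was 0.02 by limma, against 0.03 for all regions. Among them was Cxcr5, the receptor that draws B cells to follicles, with a region 38986 bases upstream of its start (chr9:44373510-44373831) that rose from 1.69, 2.01 and 2.65 RPPM to 7.17 and 6.91 RPPM (1.38 ± 0.24, adjusted p 0.00507 by limma). Others lay at Plcg2, a phospholipase of receptor signaling, and Spib, an ETS factor. Ebf1, which specifies B cells, had the loss, in an intron (5.98, 9.12 and 5.45 RPPM in C, 3.40 and 2.61 RPPM in KO, edgeR adjusted p 0.00519).

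Plasma cell genes had few calls, with a share of increases below that of all regions by edgeR and above it by limma. Counts this small say little about the list. Of 341 regions near 27 of 28 genes of the plasma cell program with a region, edgeR called 2 more accessible (0.587%, against 1.45% of all regions) and none less accessible (against 0.361%), at Mcl1, a survival protein, and in an intron of Sel1l, part of the pathway that clears misfolded proteins. The Sel1l region (chr12:93049936-93050303) rose from 3.64, 3.28 and 4.05 RPPM to 13.2 and 19.4 RPPM (1.88 ± 0.33, adjusted p 0.00625 by limma), the 1 limma call of the list (0.293%, against 0.0907% of all regions). None of the 35 promoters of this list was called, where 0.516% of all promoters were more and 0.223% less accessible, and the median over its regions was 0.06 on the log2 scale by limma, against 0.03 for all regions.

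Receptors of cytokines and homing signals had calls at several genes. Of 311 regions near 29 such genes edgeR called 8 more accessible (2.57%, against 1.45% of all regions), each at another gene (Cxcr5, Ifngr2, Il10rb, Il4ra, Il5ra, Il6ra, Il6st and Tnfrsf13c), and 2 less accessible (0.643%, against 0.361%), both at Il21r. Their median was 0.11 on the log2 scale by limma, against the 0.03 of all regions. Il5ra rose from 4.03, 3.65 and 4.05 RPPM to 8.38 and 13.1 RPPM in an intron, and Il6st, the shared signal-transducing chain of the IL-6 family, from 1.30, 0.912 and 0.623 RPPM to 4.13 and 5.79 RPPM. Il21r, the receptor of a cytokine from follicular helper T cells, fell 1516 bases upstream of its start from 4.03, 2.74 and 3.58 RPPM to 1.09 and 1.12 RPPM (edgeR, adjusted p 0.00271). This loss was not particular to BMPC. In nB the same region held 7.55, 5.84 and 7.63 RPPM in C and 2.80 and 2.76 RPPM in KO, though it was not called there (edgeR, adjusted p 0.178). The other Il21r region was also lower in KO nB (34.1, 30.5 and 31.3 RPPM in C, 23.4 and 25.8 RPPM in KO). None but the Cxcr5 region passed limma.

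Activation transcription factors gave 7 increases in 287 regions (2.44%, against 1.45% of all regions) and 1 decrease (0.348%, against 0.361%) by edgeR, and no limma call. The increases lay at Nfatc1 (3), Nfkb1 (2), Nfatc2 and Ikzf3, and the decrease 82201 bases upstream of Egr3 (8.84, 7.66 and 6.23 RPPM in C, 3.52 and 3.36 RPPM in KO). Nfkb1 had 3.38, 2.55 and 2.96 RPPM in C and 9.23 and 9.33 RPPM in KO in an intron (chr3:135279477-135280164), with an adjusted p of 0.0104 by limma, just past its limit. Of the E proteins and their Id inhibitors, Tcf4 had both increases among 121 regions (1.65%). Interferon and Trim genes had 4 increases in 122 regions (3.28%, against 1.45% of all regions), near Irf1, Ifit3 and Oasl1, no decrease, and a median of 0.18 on the log2 scale by limma, against 0.03 for all regions. Near Oasl1, an antiviral gene, a region (chr5:115366675-115367212) rose from 2.86, 2.55 and 3.58 RPPM to 10.1 and 10.6 RPPM (1.51 ± 0.23, adjusted p 0.00203 by limma).

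The lists of germline genes, imprinted genes and developmental transcription factors had few regions and at most 2 edgeR increases each. Their shares lay on either side of those of all regions (1.45% and 0.361%). Germline genes, which are methylated in somatic cells, had 53 regions near 19 of 35 genes, with 2 increases (3.77%), both near Tuba3b, and 1 decrease (1.89%) near Stk31 (edgeR). Imprinted genes had no increase and 1 decrease (1.05%), in Snrpn, in 95 regions. Developmental transcription factors had 2 increases in 119 regions (1.68%), both near Six3, and none of their 34 promoters was called, against 0.516% of all promoters more and 0.223% less accessible. With so few promoters in these lists, counts of 0 say little about them. By limma the medians were 0.01 (germline), 0 (imprinted) and -0.12 (developmental) on the log2 scale, against 0.03 for all regions. In 101 regions of the DNA methylation machinery edgeR called 2 increases, the Dnmt3a intron above and one in Zbtb38, a protein that binds methylated DNA (1.30, 1.64 and 2.18 RPPM in C, 8.14 and 10.3 RPPM in KO). Genes of lysosomes and autophagy had 2 increases in 178 regions, in Atg5 and Npc2, and the intergenic region upstream of Laptm5, a lysosomal protein, just missed the fold limit (28.0, 32.1 and 28.5 RPPM in C, 17.7 and 12.5 RPPM in KO, -0.94 ± 0.16, adjusted p 0.00507 by limma).

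Other genes of B cell activation were each read by their region of smallest p. Pax5, Cd86, Il10ra, Btla, Pou2f2, Relb, Ikzf5 and S1pr4 were not called by either test, with log2 fold changes between -0.13 (S1pr4) and 1.08 (Pax5) by limma. The Pax5 intron held 3.25, 0.912 and 2.02 RPPM in C and 6.44 and 4.11 RPPM in KO. Nfatc2 (5.59, 5.29 and 6.38 RPPM in C, 16.6 and 13.6 RPPM in KO) was called by edgeR and not by limma.

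Kit, the receptor of stem cell factor, had 3 of 6 regions called more accessible by edgeR and 1 C library that stood apart. At the Kit promoter C replicate 1 had 10.5 RPPM, next to the 12.8 and 12.7 RPPM of KO, while C replicates 2 and 3 had 3.83 and 3.43 RPPM. In the intronic region 24748 bases from the start the values were 7.67, 3.65 and 2.80 RPPM in C and 11.3 and 17.0 RPPM in KO. C replicate 1 was also the highest C library in the median over the 962 edgeR increases, 2.86 RPPM against 2.01 and 2.34 RPPM. Left out of the edgeR fit, it raised the counts to 1409 increases and 270 decreases.

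Regions that differed in BMPC stood differently in the earlier cell types. Over the 60 limma increases the median was 8.16 to 9.33 RPPM in C nB, 6.09 and 6.38 RPPM in C GCB, 2.01 to 2.86 RPPM in C BMPC and 10.9 and 11.5 RPPM in KO BMPC. In 37 of the 60 (61.7%, against 25.6% of all regions) the C nB mean was at least 2 times the C BMPC mean. In 9 of them (15.0%, against 24.7%) it was at most 0.5 times. The C BMPC levels were part of the call, so these shares are a description only. Plcl2 (chr17:50713374), a protein of the phospholipase C family, had a mean of 43.1 RPPM in C nB, 14.7 RPPM in C GCB, 1.74 RPPM in C BMPC and 8.72 RPPM in KO BMPC. Bcl11a, a zinc finger factor of B cell development, went from 40.3 and 10.7 RPPM in C nB and C GCB to 1.67 RPPM in C BMPC and 6.59 RPPM in KO BMPC. By contrast the Grb7 promoter and the regions near Npas3 and in Sel1l were low in nB and GCB of both genotypes. The larger set of 962 edgeR increases was at 1.95 to 2.07 RPPM in C nB and 7.65 and 8.03 RPPM in KO BMPC, and its C nB mean was at least 2 times the C BMPC mean in 321 regions (33.4%, against 25.6% of all regions) and at most 0.5 times in 348 (36.2%, against 24.7%). Of the 239 edgeR decreases, 158 (66.1%, against 24.7%) had a C nB mean of at most 0.5 times the C BMPC mean, and the median of the 239 was 1.12 to 1.22 RPPM in C nB, 6.09 and 6.60 RPPM in C GCB, 8.97 to 10.0 RPPM in C BMPC and 4.01 and 3.73 RPPM in KO BMPC.

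**Figure D5:**
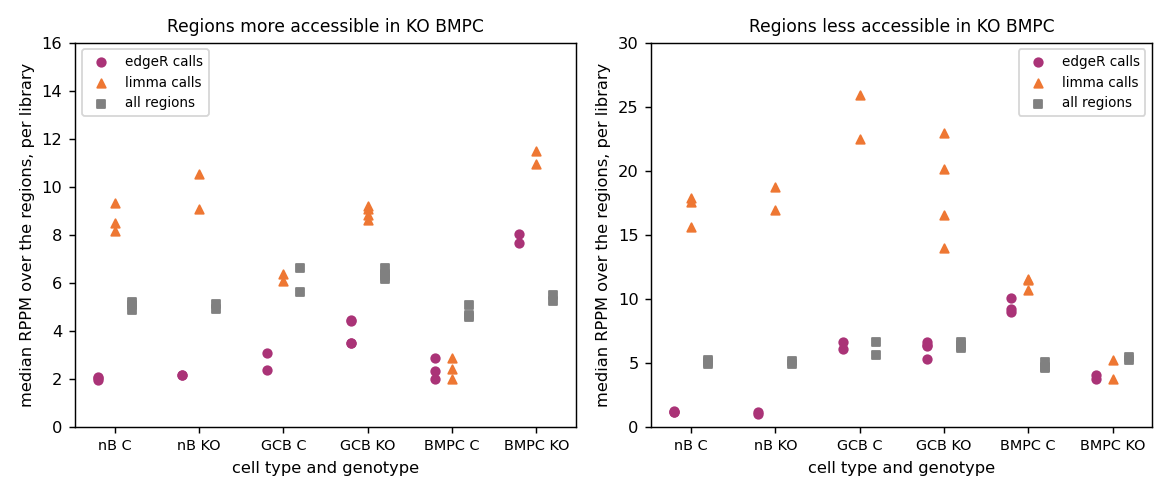
Median RPPM (y axis) over the regions more accessible (left) or less accessible (right) in KO BMPC, 1 point per library, by cell type and genotype (x axis), for the edgeR calls, the limma calls and all regions. BMPC C and KO libraries separate because the calls were made between them, limma increases are at 8.16 to 9.33 RPPM in nB C, and edgeR decreases are at 1.12 to 1.22 RPPM in nB C and at 6.09 and 6.60 RPPM in GCB C.

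Whether loss of Dnmt3 acted differently in BMPC than before was tested as the difference of the genotype effects. With limma no region passed, either against nB (2613 higher and 857 lower at an unadjusted p under 0.05) or against GCB (3062 higher and 2447 lower). With GCB pools paired in the fit by a name they share in the labels (F2, C replicate 1 with KO replicate 2, and M1, C replicate 2 with KO replicate 4; a replicate block in which the other KO pools had terms of their own), limma called 7 higher and none lower against nB, and 27 higher and 7 lower against GCB. With edgeR's quasi-likelihood test the effect was higher in BMPC than in nB in 35 regions (0.0529%) and lower in 14 (0.0212%), and higher than in GCB in 18 (0.0272%) and lower in 1 (0.00151%). Of these, 33 and 9 against nB and 17 and 1 against GCB were among the BMPC calls of the same direction. The region beside S100z differed from both, with an adjusted p of 1.03e-05 against nB and 0.000284 against GCB (edgeR), while limma's adjusted p was 0.0530 and 0.0408. It held 5.12, 0 and 0.186 RPPM in C nB and 0 in both KO nB libraries, so that 1 C library carried the nB effect, and 8.80 and 2.81 RPPM in C GCB and 0.636 to 6.99 RPPM in KO GCB. In GCB the 962 regions had a median log2 fold change of 0.23 between KO and C by limma, against 0.03 for all regions, and GCB libraries did not overlap in their median level (2.34 and 3.08 RPPM in C, 3.50 to 4.46 RPPM in KO). In GCB, limma called 21 regions more accessible in KO (0.0317% of all regions) and none less accessible, and edgeR 1 and none. With the pools paired, limma called 107 and 28, and without C GCB replicate 1 or 2 it called 59 and 2 or 1 and none. Of the 962 regions, 5 were among the 21 limma calls and none among the edgeR calls. GCB libraries held 907959 to 2280954 reads in regions. In nB the 962 regions had a median of 0.03, and 1 of them was among the 3 increases (0.00453% of all regions) that edgeR called there beside 4 decreases (0.00604%), while limma called none (417 higher and 690 lower at an unadjusted p under 0.05).

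Chromosome X had the lowest share of increases. There edgeR called 5 of 1638 regions more accessible (0.305%) and 3 less accessible (0.183%), and limma none. On the autosomes the share of increases was between 0.947% (chromosome 9) and 2.02% (chromosome 17), and that of decreases between 0.0902% (chromosome 3) and 0.694% (chromosome 11). Chromosome 3 also had no limma call. All BMPC libraries came from female mice, and reads on X made up 1.68% to 1.70% in C and 1.65% and 1.68% in KO.

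Each library was finally left out of the edgeR fit and the regions called without it were looked up in it. Without KO replicate 1, 434 regions were more accessible, and 429 of them (98.8%) lay above every C library in the left-out library, as 34.4% of all regions did. Without KO replicate 2 the numbers were 386 of 404 (95.5%), against 30.9%. Of the decreases, 76 of 87 (87.4%) and 99 of 103 (96.1%) lay below every C library, against 22.7% and 27.4%. With a C library left out, 93.5% to 99.6% of the increases lay below both KO libraries in it, against 33.9% to 45.0% of all regions, and 91.6% to 96.3% of the decreases lay above both, against 30.3% to 37.9%. These shares are a description. The left-out library was set against libraries of the other genotype that had helped to make the calls. The share of all regions is therefore not the value to be had with no change. With a KO library left out, KO BMPC had 1 library, and the spread in either test came from the other groups. In the limma fit 1 increase and no decrease were left without KO replicate 1 and likewise without KO replicate 2, 105 and 9 without C replicate 1, 10 and 1 without C replicate 2, and 12 and 3 without C replicate 3. The fold changes of the 60 and 9, which were chosen on these same libraries, were still at least 1 on the log2 scale in 58 and 9 without KO replicate 1 and in 58 and 8 without KO replicate 2.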

How the data were processed

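The deposited table gave, for 16 ATAC-seq libraries and 66177 regions (mm9), RPPM values: the authors scaled the reads in each region by the sum of reads in all regions (RPM over regions). Per the labels, Bowtie 1.1.1, Picard 1.127, MACS2 2.1.0.20140616 and edgeR 3.12.1 were used; 54 columns of the authors' own comparisons (fold changes and p-values) were not used. Whole reads were recovered from the deposited RPPM signal in 100% of values (tolerance 0.01). KO and C BMPC were compared with limma 3.58.1 on log2(RPPM + 1) in 1 fit of 6 groups (variance trend, Benjamini-Hochberg adjustment over all regions) and with edgeR 4.0.16 (quasi-likelihood, TMM) on the recovered reads, in R 4.3.3. Both were tested on simulated reads, drawn with edgeR's own estimate of the spread, in which 200 regions were changed 4-fold. The changed regions were taken from those with more reads, so smaller changes and weaker regions were not covered. Reads in regions per BMPC library were 5357687 to 8232313. Sequence, CpG and motifs came from the NCBIM37 genome for 65891 regions. Genes are those of the nearest start or transcript in the table, and 6936 regions have no symbol there.

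Named regions were the Dnmt3a and Dnmt3b promoters, the 12 largest limma increases and all limma decreases, called regions of gene lists, genes the study discusses, and the 10 largest edgeR changes each way with at least 5 RPPM. The comparison, members and lists were chosen with earlier results of these data known. Other regions that edgeR called in the lists, genes with several called regions, the Kit and Flt3 regions, and the limma increases named for their level in nB were picked after their values were seen. Alternatives covered pseudocounts, scaling, filters, tools, single libraries and a replicate block. Results on some genes are not reported here.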

Additional observations from a re-analysis of the deposited data

Results flagged for a closer look

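The genotype effect differed between cell types in 49 regions for BMPC against nB and in 19 for BMPC against GCB. These counts are from edgeR's quasi-likelihood test of the difference (adjusted p at most 0.01). The main limma fit found none. With the GCB pools paired, limma called 7 regions against nB and 34 against GCB, and with a pseudocount of 5 RPPM 7 and 10.

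In 3 of the 60 named regions, 1 of the 4 KO GCB libraries lay far from the other 3 (chance alone does this in about 1 in 20 groups). Near Tuba3b (chr6:145566480) KO GCB replicate 1 had 2.20 RPPM against 1.27 to 1.40 RPPM, and in Snrpn (chr7:67267310) it had 23.1 RPPM against 35.0 to 36.8 RPPM. Near Speer1 (chr5:11416904) KO GCB replicate 2 had 5.73 RPPM against 7.69 to 7.89 RPPM. The shallowest of these libraries, KO GCB replicate 1, held 907959 reads in regions.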

How the results depend on the processing

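Counts of calls depended on the test, and increases outnumbered decreases in each alternative run with all libraries. More and less accessible regions numbered 94 and 6 with a pseudocount of 5 RPPM, 43 and 15 with 0.1 RPPM, 53 and 17 with TMM scaling, 12 and 2 with quantile normalization, 159 and 24 with BMPC libraries only, 24 and 2 with no trend, 359 and 43 when adjusted p up to 0.05 counted, 962 and 239 with edgeR's quasi-likelihood test, 1329 and 348 with its likelihood ratio test, 409 and 85 with DESeq2, and 1164 and 229 with limma-voom. Leaving out 1 library of any group gave 1 to 187 and 0 to 22 with limma. With edgeR, leaving out 1 BMPC library (chosen after seeing the data) gave 404 to 1409 and 87 to 270.

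Regions whose genotype effect differed between BMPC and nB numbered 7 with a pseudocount of 5 RPPM, 3 when adjusted p up to 0.05 counted, 49 and 177 with edgeR's quasi-likelihood and likelihood ratio tests, 28 with DESeq2 and 35 with limma-voom. Against GCB they numbered 10, 10, 19, 75, 19 and 7 in the same order, and 1 with quantile normalization and 1 with no trend. Leaving out 1 library gave 0 to 1 for both.

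The replicate block, with GCB pools paired by the name they share in the labels, gave 388 increases, 34 decreases, 7 differences against nB and 34 against GCB. BMPC libraries share no such name, so it changes their count through the shared spread only.

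The promoter share of the increases was 4.65% with a pseudocount of 0.1 RPPM and fell to 0% without either KO library, where 1 region was left and the median distance was 110098 or 64501 bases (18216 to 110098 bases over all left-out libraries). The median log2 fold change of all regions was -0.0276 with TMM, -0.0146 with quantile normalization, -0.0419 and -0.0418 with the edgeR tests, -0.0201 with DESeq2 and -0.0305 with limma-voom. Directions turned only for uncalled regions near 0: Ikzf5 (-0.00557 and -0.00457 with the edgeR tests, -0.0253 with limma-voom, -0.0207 to 0.163 with a library left out), the Dnmt3a promoter (-0.155 to 0.0763) and a promoter with no symbol at chr12:3806151 (-0.215 to 0.0399). The causes were not tested.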
